A study of Mus musculus with 6 samples.

Results

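The ventral forebrain and interneuron genes Dlx1, Dlx2, Dlx5, Gsx2, Sp8, Sp9, Lhx6, Gad1 and Gad2 were taken from the gene table by symbol, 9 of 24041 genes, and all 9 were among the 14451 genes with enough reads to test. The study sequenced RNA of 6 mouse libraries, each from cortex cells that had taken up electroporated plasmids and were sorted by their green fluorescent protein (GFP). In 3 libraries the cells had been given GFP with mutant PRPF6, and in the other 3 GFP with wild-type PRPF6. PRPF6 is a protein of the spliceosome, the nature of the mutation is not given in the sources used here, and neither is the age, the strain, or whether a library came from 1 animal or from a pool. Since both groups carried a PRPF6 plasmid and no group went without one, a higher value with mutant PRPF6 cannot be told apart from a lower value with wild-type PRPF6.

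The forebrain of the mouse embryo is divided into a dorsal part, the pallium, which makes the excitatory neurons of the cortex, and a ventral part, the ganglionic eminences, which make inhibitory neurons. Progenitors of the eminences switch on homeobox factors such as GSX2 and then the DLX proteins, and their daughters make GABA, the inhibitory transmitter. Many of these daughters migrate into the cortex as interneurons, so a dissected cortex holds some cells with ventral transcripts. The same DLX and GAD genes are also active outside the telencephalon, for example in the prethalamus.

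The libraries held 45115122 to 60600617 expected counts. Levels are given as CPM, counts brought to the same library total after TMM correction for composition, where 1 count was worth 0.0164 to 0.0228 CPM. Where 3 values are given for a group, they are those of its replicates 1, 2 and 3. Defining genes of the labelled tissue were present: all 16 listed genes of the cortical excitatory lineage had enough reads to test, and Lhx2, a factor of cortical progenitors, averaged 731 ± 143 CPM with mutant and 625 ± 133 CPM with wild-type PRPF6 (SD, n = 3 each). Prpf6 itself averaged 134 ± 10.01 and 141 ± 22.6 CPM in the same order of groups, which does not check the labels, because the plasmid's species is not given. Some libraries stood apart. Wild-type replicate 3 had the highest sum over 12 red blood cell genes, 17141 CPM, against 81.8 to 2872 CPM in the others, and the highest over 10 meningeal fibroblast genes, 1858 CPM against 34.6 to 195 CPM. Mutant replicate 2 had the highest sum over 9 microglia genes, 932 CPM against 42.6 to 326 CPM. Mutant replicate 1 had the lowest sum over the 16 excitatory genes, 1911 CPM against 2701 to 4483 CPM.

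None of the 9 genes passed the test between mutant and wild-type PRPF6. The quasi-likelihood test of edgeR put 0 of 9 under a Benjamini-Hochberg adjusted p of 0.05, and 0% of all tested genes, with an adjusted p of 1.00 for each of the 9. At an unadjusted p under 0.05 stood 0 of the 9, against 3.38% of all tested genes, of which 2.18% were higher and 1.2% lower with mutant PRPF6. DESeq2, which called 0.0714% of the genes it adjusted, and limma-voom also had 0 of the 9 at either threshold. The fitted level was higher with mutant PRPF6 for 6 genes and lower for 3, where 49.8% of all tested genes were higher, and the median log2 difference was 0.039 against −0.0013 over all tested genes. In 0 of the 9 genes did the 3 mutant libraries lie wholly on one side of the 3 wild-type libraries, against 9.14% of all tested genes, 4.6% with the mutant libraries above and 4.54% with them below. All of the 9 genes but Sp8 had a wide spread between libraries of the same group. In a bulk sample, fewer cells of a type and less RNA per cell cannot be told apart, and this holds for every level given here.

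**Figure D1:**
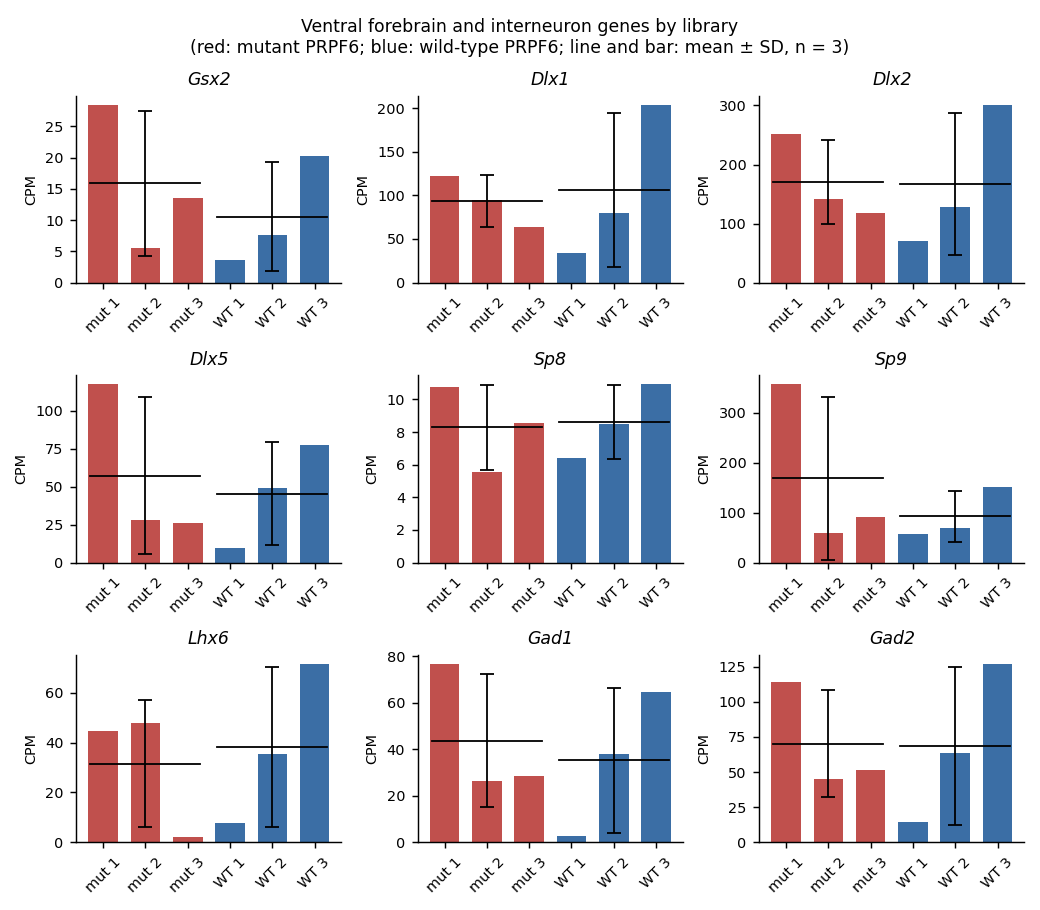
Levels of the 9 genes in CPM (y axes, each from 0) in each of the 6 libraries, with mutant PRPF6 in red and wild-type PRPF6 in blue. Black lines and bars are the group means ± SD (n = 3 each). Mutant replicate 1 and wild-type replicate 3 are the highest 2 libraries for every gene but Lhx6, and wild-type replicate 1 is the lowest for 7 of the 9 genes.

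Gsx2 (chromosome 5, 75075601 to 75077893, plus strand, GRCm38) encodes a homeobox factor that specifies progenitors of the lateral ganglionic eminence, and stands first in the ventral programme. Its levels were 28.5, 5.52 and 13.6 CPM in the mutant libraries, and 3.61, 7.68 and 20.3 CPM in the wild-type libraries. The groups overlapped, with mutant replicate 1 at the top and wild-type replicate 1 at the bottom. The means were 15.9 ± 11.6 CPM with mutant and 10.5 ± 8.70 CPM with wild-type PRPF6 (SD, n = 3 each). The log2 difference was 0.59 ± 0.75 (SE), with a 95% interval of −1.14 to 2.33 (edgeR quasi-likelihood test, adjusted p = 1.00).

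Dlx1, Dlx2 and Dlx5 encode homeobox factors of the DLX family, which drive the differentiation and migration of GABAergic neurons. Dlx2 was at 252, 142 and 117 CPM in the mutant libraries, and at 70.7, 128 and 302 CPM in the wild-type libraries. All 3 mutant values lay inside the wild-type range. Its log2 difference was 0.031 ± 0.50 (SE; 95% interval −1.13 to 1.19), on means of 170.4 ± 71.6 and 167 ± 120.2 CPM with mutant and wild-type PRPF6 (SD, n = 3 each). Dlx1 was at 122, 94.6 and 63.7 CPM in the mutant libraries, and at 34.1, 80.0 and 204 CPM in the wild-type libraries. The mutant libraries again fell within the wild-type range, and the log2 difference was −0.18 ± 0.56 (SE; −1.47 to 1.12). For Dlx5, on chromosome 6 (6877805 to 6882085, minus strand), the values were 117, 28.3 and 26.2 CPM in the mutant libraries, and 9.45, 49.2 and 77.2 CPM in the wild-type libraries. Mutant replicate 1 exceeded every other library here, while the other mutant libraries lay below wild-type replicates 2 and 3. The log2 difference of Dlx5 was 0.34 ± 0.79 (SE; −1.47 to 2.15).

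Dlx1 (chromosome 2, 71528113 to 71533981, plus strand, GRCm38) and Dlx2 (71543408 to 71546754, minus strand) converge across 9.43 kb. With Dlx1 as the authors' counting estimated it, Dlx1 over Dlx2 was 0.49, 0.67 and 0.54 in the mutant libraries. In the wild-type libraries it was 0.48, 0.62 and 0.68, so the highest ratio was 1.40 times the lowest. Dlx2 alone varied 4.26-fold over the 6 libraries and Dlx1 5.99-fold. Dlx1 overlaps the antisense gene Dlx1as along its whole length in GENCODE, 5869 bases, and the authors' counting shared reads between them: Dlx1 was not a whole number in any of the 6 libraries, while the sum of both genes was whole in all (tolerance 1e-06). The strand setting is not given, so reads of Dlx1 and Dlx1as cannot be told apart. The steadiness of the Dlx1 over Dlx2 ratio thus rests on how these reads were divided. Their sum was 242, 174 and 107 CPM in the mutant libraries, and 49.1, 121 and 326 CPM in the wild-type libraries, with the same libraries high and low as for Dlx2. As the authors' estimates divide the reads, Dlx1as was at 0.97, 0.84 and 0.68 of Dlx1 in the mutant libraries. In the wild-type libraries it was at 0.44, 0.51 and 0.60, so that the mutant ratios all lay above the wild-type ratios. This ratio was picked after its values were seen, and it too rests on how the reads were divided. Groups did not overlap for 9.14% of single tested genes, and no such share was counted over ratios. On chromosome 6 the neighbours of Dlx5 likewise had mutant replicate 1 and wild-type replicate 3 at the top and wild-type replicate 1 at the bottom. Dlx6, its paired DLX gene, was at 6.95, 2.65 and 1.80 CPM in the mutant libraries and 1.18, 3.13 and 6.37 CPM in the wild-type libraries, and Dlx6os1, a noncoding RNA of the locus, was at 105, 75.9 and 39.8 CPM in the mutant libraries and 31.2, 93.7 and 152 CPM in the wild-type libraries.

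Sp8 (chromosome 12, 118846329 to 118852576, plus strand) and Sp9 (chromosome 2, 73271925 to 73284706, plus strand) encode zinc finger factors of the SP family that act in neurons born in the lateral and caudal eminences. Sp9 was at 357, 58.8 and 91.3 CPM in the mutant libraries, and at 57.2, 69.8 and 151 CPM in the wild-type libraries. A single library, mutant replicate 1, stood above the rest, and the other mutant libraries lay inside the wild-type range. This gave the largest fitted difference among the 9 genes, 0.87 ± 0.66 (log2, SE; 95% interval −0.65 to 2.39), on means of 169 ± 164 CPM with mutant and 92.7 ± 51.0 CPM with wild-type PRPF6 (SD, n = 3 each). Without mutant replicate 1 the fitted difference of Sp9 was −0.30. Sp9 counts were not whole in 4 libraries, so they hold reads that RSEM divided between genes. Sp8 was the steadiest of the 9. It was at 10.8, 5.56 and 8.57 CPM in the mutant libraries, and at 6.40, 8.50 and 10.9 CPM in the wild-type libraries, a 1.96-fold span. Its log2 difference was −0.052 ± 0.49 (SE; −1.19 to 1.08).

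Lhx6 (chromosome 2, 36081953 to 36105408, minus strand) encodes a LIM-homeobox factor of interneurons born in the medial ganglionic eminence, where it acts downstream of NKX2-1. It was at 44.6, 47.8 and 2.21 CPM in the mutant libraries, and at 7.75, 35.4 and 71.4 CPM in the wild-type libraries. Lhx6 had the widest span of the 9, 32.3-fold between wild-type replicate 3 and mutant replicate 3, and mutant replicate 3 was its lowest library. The log2 difference was −0.28 ± 1.02 (SE; 95% interval −2.62 to 2.07), on means of 31.5 ± 25.4 CPM with mutant and 38.2 ± 31.9 CPM with wild-type PRPF6 (SD, n = 3 each). Wild-type replicate 1 came next from the bottom.

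Gad1 (chromosome 2, 70553072 to 70602014, plus strand) and Gad2 (chromosome 2, 22622205 to 22693874, plus strand) encode GAD67 and GAD65, the enzymes that make GABA from glutamate. Gad1 was at 76.6, 26.2 and 28.4 CPM in the mutant libraries, and at 2.92, 37.8 and 64.8 CPM in the wild-type libraries. The low value of wild-type replicate 1 came from 136 counts, against 1247 or more in each other library. Gad2 was at 114, 45.4 and 51.7 CPM in the mutant libraries, and at 14.6, 63.9 and 127 CPM in the wild-type libraries. Both genes ranked wild-type replicate 1 last. The log2 difference was 0.31 ± 0.88 for Gad1 (SE; 95% interval −1.71 to 2.34) and 0.039 ± 0.67 for Gad2 (SE; −1.51 to 1.59). Gad1 over Gad2 was 0.67, 0.58 and 0.55 in the mutant libraries, and 0.20, 0.59 and 0.51 in the wild-type libraries, with wild-type replicate 1 apart from the other libraries.

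**Figure D2:**
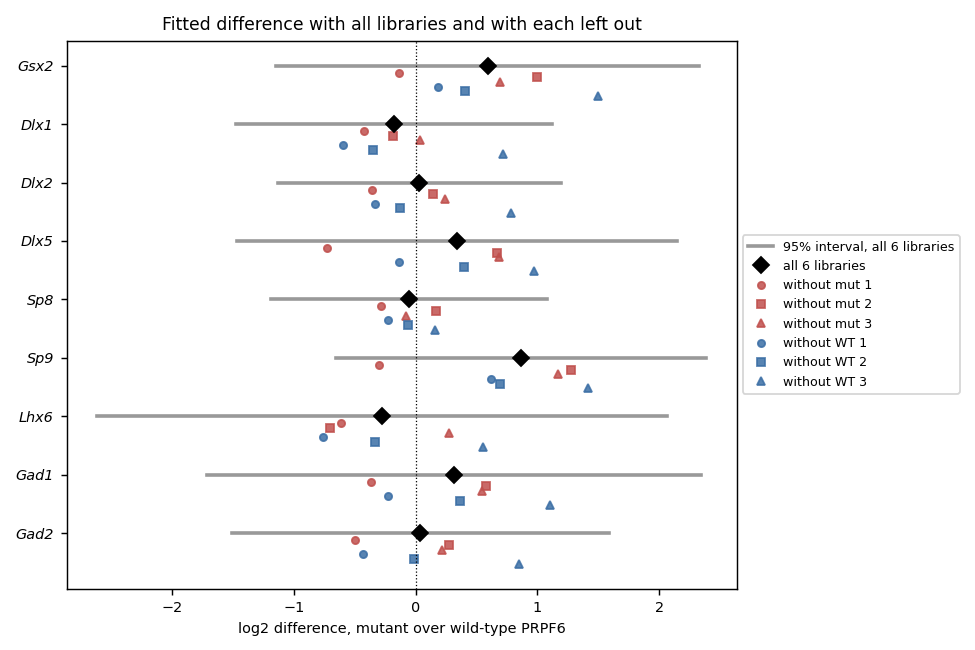
Log2 differences of the 9 genes, mutant over wild-type PRPF6 (x axis). Black diamonds and grey bars are the fit to all 6 libraries with its 95% interval, and small symbols are fits with 1 library left out, red for a mutant and blue for a wild-type library. All 9 intervals include 0, and leaving out mutant replicate 1 places all 9 genes below 0 while leaving out wild-type replicate 3 places all 9 above 0.

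The direction of the fitted differences rested on single libraries. Without mutant replicate 1 all 9 genes were lower with mutant PRPF6, and their median was −0.36 on the log2 scale. Without wild-type replicate 3, the library rich in red blood cell and meningeal genes, all 9 were higher, with a median of 0.84. Leaving out wild-type replicate 1 left 2 higher and 7 lower, with a median of −0.23. In none of the 6 fits did any of the 9 pass the adjusted threshold. The 95% intervals leave room for sizeable differences: for Dlx2, the narrowest but Sp8, the interval spans 0.46-fold to 2.28-fold, and for Lhx6 0.16-fold to 4.18-fold.

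For all 9 genes the spread between libraries of a group was above that of most genes of their level. The pooled within-group SD of log2 CPM had a median of 1.21 over the 9, against 0.33 over the 9013 tested genes with a mean level in the same range, 8.45 to 169 CPM. For 8 of the 9 it exceeded 0.76, the 90th percentile of those genes. Lhx6 had the widest at 2.12, followed by Gad1 at 1.79, above 98.9% and 98.5% of those genes. Sp8, at 0.44, was under that percentile but still above 67.0% of those genes. Such a spread was not particular to the 9. The median SD was 1.13 over the 19 further ventral factors, 1.29 over the GABA-A receptor list and 2.45 over the interneuron subtype markers. It was lower over interneuron migration and maturation (0.63), GABA synthesis, transport and breakdown (0.72) and the excitatory lineage (0.60). These lists were not matched to the 9 in level. Wild-type replicate 3 was first or second for all 9 genes and mutant replicate 1 for 8. The median over the 9 genes of log2 CPM, centred on each gene's own mean, was 1.06, −0.31 and −0.17 in the mutant libraries, and −1.45, 0.050 and 1.01 in the wild-type libraries.

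**Figure D3:**
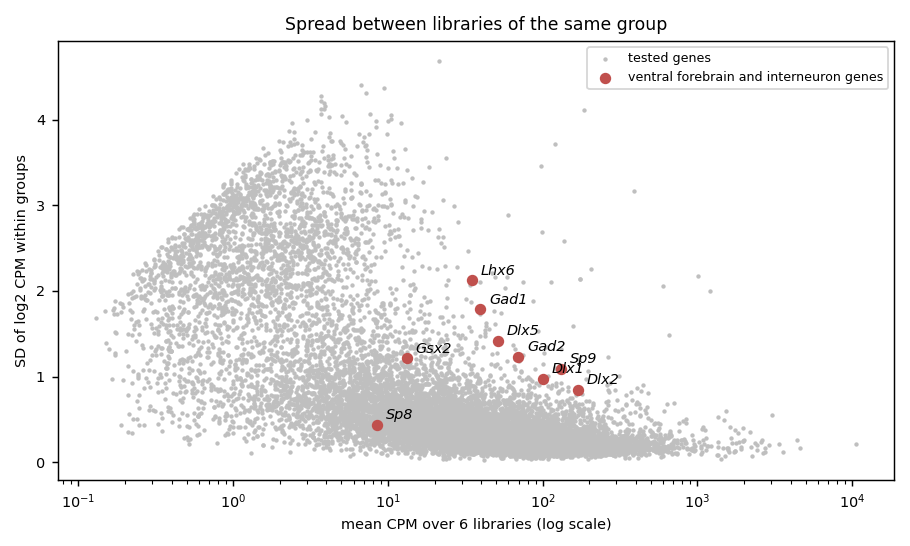
Within-group SD of log2 CPM (y axis) against mean level in CPM (x axis, log scale) for the 14451 tested genes in grey, with the 9 ventral forebrain and interneuron genes in red. Except Sp8, at an SD of 0.44, they run from 0.85 for Dlx2 to 2.12 for Lhx6. These lie above 0.76, the 90th percentile of tested genes with a mean level in the same range.

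Levels of different genes were compared per kilobase of the longest coding transcript in GENCODE M21. Dlx2 was the most abundant at 68.2 CPM per kb over the 6 libraries, above Dlx5 at 36.0, and Dlx2 exceeded Dlx5 in 6 of 6 libraries. Dlx5, Sp9 at 29.0 and Dlx1 at 24.3 CPM per kb did not keep their order, which held in 4 of 6 libraries for Dlx5 over Sp9 and in 3 of 6 for Sp9 over Dlx1. Below Dlx1, in 6 of 6 libraries, came Gad2 at 12.1 CPM per kb, then Gad1 at 11.8, Lhx6 at 10.01 and Gsx2 at 7.92 CPM per kb, whose neighbours also changed places in 2 or 3 of the libraries. Sp8 was the least abundant at 1.89 CPM per kb, below Gsx2 in 6 of 6 libraries.

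The genes did not move as 1 block. Relative to Dlx2 in the same library, Lhx6 was at 0.18, 0.34 and 0.019 in the mutant libraries and at 0.11, 0.28 and 0.24 in the wild-type libraries, a 17.9-fold span. In mutant replicate 3 Lhx6 was thus scarce while Dlx2 was at 117 CPM. Nkx2-1 and Sst, other genes of the medial eminence and its interneurons, were both low in that library, but not every listed gene was. Sox6 and Satb1, of the interneuron migration and maturation list, were at 105 and 92.9 CPM there. Their ranges over the 6 libraries were 70.6 to 137 CPM and 71.7 to 98.2 CPM. Lhx8 and Maf were at 2.07 and 1.87 CPM there. They were lower in wild-type replicate 1 (0.043 and 0.60 CPM) and mutant replicate 1 (0.81 and 0.45 CPM). Nkx2-1, the factor that sets up the medial eminence, was at 39.7, 32.4 and 6.75 CPM in the mutant libraries and 14.3, 19.9 and 63.1 CPM in the wild-type libraries, so mutant replicate 3 was again lowest. Sst, the neuropeptide of many such interneurons, was at 3.32, 16.3 and 1.80 CPM in the mutant libraries and 0.086, 14.1 and 22.2 CPM in the wild-type libraries. For Sst, wild-type replicate 1 was lowest and mutant replicate 3 next. Gsx2 over Dlx2, in contrast, was 0.11, 0.039 and 0.12 in the mutant libraries and 0.051, 0.060 and 0.067 in the wild-type libraries, highest in mutant replicates 1 and 3. Sp9 over Dlx2 was 1.42 in mutant replicate 1 and 0.41 to 0.81 in the other libraries.

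**Figure D4:**
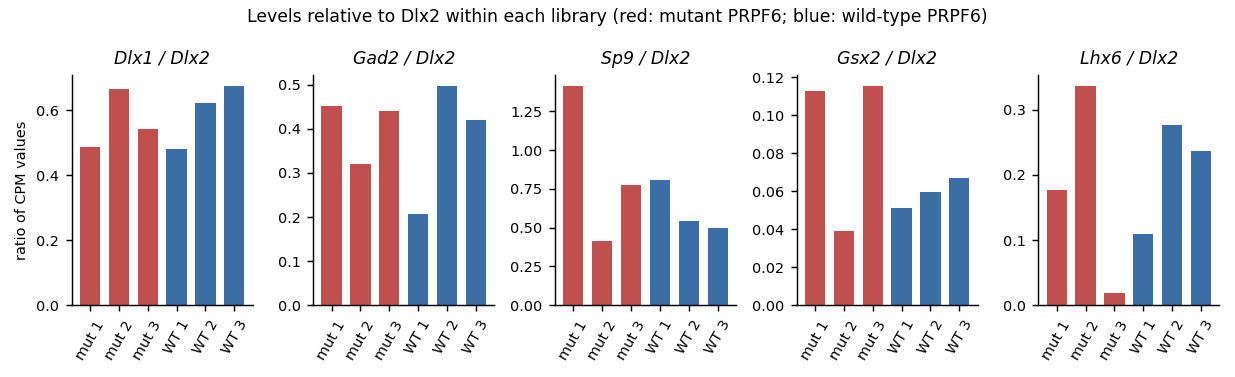
CPM of Dlx1, Gad2, Sp9, Gsx2 and Lhx6 divided by CPM of Dlx2 in the same library (y axes, each from 0), with mutant PRPF6 in red and wild-type PRPF6 in blue. The Dlx1 ratio stays between 0.48 and 0.68, while the Lhx6 ratio runs from 0.019 in mutant replicate 3 to 0.34 in mutant replicate 2. The Dlx1 ratio rests on how the authors' counting divided reads between Dlx1 and Dlx1as.

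Upstream sequences of the genes are shown because several of the genes encode homeobox factors that bind the letters TAATTA or its shorter form TAATT. RefSeq start sites on GRCm38.p6 matched 8 of the 9 genes with 12 windows, all but Dlx5, and the 250 bases before each start were searched on both strands for TAATTA, for TAATT, which lies within it, and for CAGCTG, an E-box read by proneural factors. The sequences below run 5′ to 3′ on the strand of the gene, with matches in capitals. Dlx2 is the most abundant of the 9, Gsx2 the earliest acting, Sp9 the one with the largest fitted difference and Lhx6 the most variable.
Dlx2, chr2:71546755-71547004, minus strand: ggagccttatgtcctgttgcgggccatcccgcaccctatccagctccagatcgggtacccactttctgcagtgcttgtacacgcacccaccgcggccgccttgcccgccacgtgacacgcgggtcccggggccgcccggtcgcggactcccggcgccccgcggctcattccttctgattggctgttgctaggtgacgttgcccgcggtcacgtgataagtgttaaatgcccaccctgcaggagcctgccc
Gsx2, chr5:75075351-75075600, plus strand: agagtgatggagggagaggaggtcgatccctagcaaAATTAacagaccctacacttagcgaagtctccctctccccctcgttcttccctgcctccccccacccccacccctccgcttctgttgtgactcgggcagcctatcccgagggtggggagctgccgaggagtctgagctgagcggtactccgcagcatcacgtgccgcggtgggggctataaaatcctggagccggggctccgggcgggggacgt
Sp9, chr2:73271676-73271925, plus strand: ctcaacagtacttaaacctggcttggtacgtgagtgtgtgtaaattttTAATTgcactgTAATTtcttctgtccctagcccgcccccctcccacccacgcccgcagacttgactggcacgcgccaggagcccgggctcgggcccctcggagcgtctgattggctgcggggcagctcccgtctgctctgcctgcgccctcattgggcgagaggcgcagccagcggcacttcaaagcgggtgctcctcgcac
Lhx6, chr2:36105409-36105658, minus strand: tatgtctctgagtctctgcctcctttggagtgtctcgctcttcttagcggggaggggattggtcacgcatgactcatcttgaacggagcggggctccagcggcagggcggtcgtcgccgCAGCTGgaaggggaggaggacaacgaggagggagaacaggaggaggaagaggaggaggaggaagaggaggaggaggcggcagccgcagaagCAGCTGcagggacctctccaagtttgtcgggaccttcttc
TAATT was present in at least 1 window of 4 of the 8 genes, Gsx2, Sp8, Sp9 and Lhx6, and in 5 of the 12 windows, against 25.0% of all 32851 windows of this length. TAATTA was present in 1 window, of Sp8, against 4.84% of all windows, and CAGCTG in 1 window, of Lhx6, against 13.0%. The windows of Dlx1, Dlx2, Gad1 and Gad2 held none of these letters. The GC content was 66.4% for Dlx2, 63.6% for Gsx2, 62.4% for Sp9 and 61.6% for Lhx6, with a median of 52.4% over all windows. A match describes letters only, and these data do not measure binding.

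Other genes of the ventral programme likewise held no call. Of 19 further transcription factors and noncoding RNAs of the ventral telencephalon, all tested, 0 passed the edgeR test, 13 had higher and 6 lower fitted levels, and the median log2 difference was 0.44. Without mutant replicate 1 the split was 7 higher and 12 lower, with a median of −0.31. Among 20 genes of interneuron migration and maturation 0 passed, with 14 higher and 6 lower and a median of 0.18, and with 8 higher and 12 lower and a median of −0.060 without mutant replicate 1. Nr2f1, a nuclear receptor also used in cortical progenitors, was at 176 ± 59.7 CPM with mutant and 111 ± 25.3 CPM with wild-type PRPF6, from counts that were not whole in any library. Tshz1, a zinc finger factor of olfactory bulb interneurons, averaged 76.8 ± 15.5 CPM with mutant and 47.9 ± 15.5 CPM with wild-type PRPF6 (SD, n = 3 each), and its groups did not overlap, as in the 4.6% of all tested genes above. Of the 9 genes of GABA synthesis, transport and breakdown 0 passed, with 5 higher and 4 lower and a median of 0.074, which was −0.072 without mutant replicate 1 and −0.076 when wild-type replicate 1 was left out. At an unadjusted p under 0.05 stood 1, 2 and 0 members of these lists, where 3.38% of all tested genes did.

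Many, but not all, excitatory genes of the pallium were low in mutant replicate 1, which was the lowest library for 10 of the 16. Over the 16 genes of that lineage the median centred log2 CPM was −0.99, 0.16 and 0.34 in the mutant libraries, and 0.45, 0.24 and −0.17 in the wild-type libraries. The library with the lowest excitatory median was thus the one with the highest ventral median, and wild-type replicate 1 had the highest excitatory and the lowest ventral median. Neurod6, a bHLH factor of excitatory neurons, was at 57.5, 693 and 608 CPM in the mutant libraries and 1275, 736 and 583 CPM in the wild-type libraries. Eomes, the factor of intermediate progenitors, was at 20.6, 159 and 202 CPM in the mutant libraries and 175, 140 and 97.4 CPM in the wild-type libraries. Neurog2, a proneural factor of cortical progenitors, was not low there, at 557, 494 and 874 CPM in the mutant libraries and 598, 577 and 342 CPM in the wild-type libraries. Pax6 and Lhx2, factors of the same progenitors, also had their lowest level in wild-type replicate 3. Between the groups 0 of the 16 passed the edgeR test, with 6 higher and 10 lower (median log2 difference −0.19, and 0.079 without mutant replicate 1).

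Some genes also known from other brain regions were highest in mutant replicate 1; no list of such genes was counted. Gbx2 and Otx2, listed with the ventral factors, are also genes of the diencephalon, and Otx2 is also one of the midbrain. Gbx2 was at 209 CPM in mutant replicate 1 and at 19.3 to 51.9 CPM in the other 5 libraries, and Otx2 at 144 CPM against 17.2 to 46.0 CPM. Further genes were looked up after these values were seen. Tcf7l2, a factor abundant in the thalamus, was at 1131, 233 and 361 CPM in the mutant libraries and 207, 210 and 319 CPM in the wild-type libraries. Lhx9, another thalamic factor, was at 164, 32.0 and 39.3 CPM in the mutant libraries and 43.5, 42.8 and 61.3 CPM in the wild-type libraries. The part of these genes' source cells in the ventral levels of that library was not tested.

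Blood, vessel, meningeal and microglia markers were far apart in mutant replicate 1 and wild-type replicate 3, the pair of libraries with the highest ventral medians. Mutant replicate 1 had summed levels of 732 CPM over red blood cell, 74.7 over meningeal, 42.6 over microglia and 4.94 over endothelial genes. Wild-type replicate 3 had 17141, 1858, 252 and 137 CPM over the same lists. In the group comparison 0 members of these 4 lists passed the edgeR test. All 12 red blood cell genes had lower fitted levels with mutant PRPF6 (median −3.18, or −1.21 without wild-type replicate 3), as did 9 of 10 meningeal genes (−2.75, or −0.86), with both lists keeping their sign there. The red blood cell genes were not all separate measurements. Hbb-b2 and Hbb-bt had the same counts in every library, and their counts and those of Hba-a1 and Hba-a2 were not whole in any library. The microglia list had 8 of 9 higher (median 0.46), but 0 of 9 without mutant replicate 2 (−2.38) and 2 of 9 with limma-voom or, at a median of −1.05, with the replicate block. The endothelial list had 0 of 4 higher (−1.56), but 4 of 4 without wild-type replicate 3 (2.65) and 3 of 4 with the replicate block (0.28). The part of these cells in the levels of the ventral genes was not tested.

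**Figure D5:**
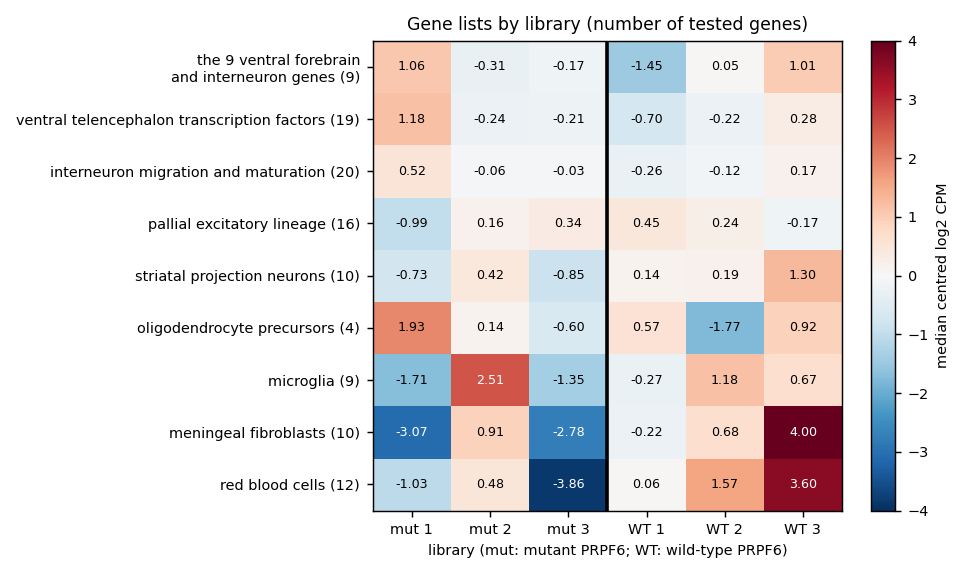
Median log2 CPM of 9 gene lists in each library, centred on each gene's mean over the 6 libraries (colour and printed value), with mutant PRPF6 on the left and wild-type PRPF6 on the right of the line. The top row, the 9 ventral forebrain and interneuron genes, is highest in mutant replicate 1 (1.06) and wild-type replicate 3 (1.01) and lowest in wild-type replicate 1 (−1.45), and the excitatory row is lowest in mutant replicate 1 (−0.99).

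The genes outside all lists whose profile over the 6 libraries came nearest to the median profile of the 9 were Lin7a, Rhoc, Mb21d2, Pbx3 and Tmem88, with root-mean-square distances of 0.22 to 0.24 log2 units. Pbx3, a TALE homeobox factor, was at 64.8, 27.0 and 40.8 CPM in the mutant libraries and 10.8, 28.8 and 59.3 CPM in the wild-type libraries. Rhoc, a gene of a small GTPase, was at 38.9, 18.5 and 20.9 CPM in the mutant libraries and 6.76, 25.0 and 31.7 CPM in the wild-type libraries. Both had their lowest value in wild-type replicate 1 and their highest in mutant replicate 1, a shape favoured by how they were selected. Lin7a, Mb21d2 and Tmem88 were instead highest in wild-type replicate 3, at 14.2, 17.1 and 7.81 CPM. Neither Pbx3 nor Rhoc passed the edgeR test between the groups (adjusted p = 1.00).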

How the data were processed

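RNA of 6 libraries, 3 of each group, was turned into cDNA from picogram amounts with a SMART-Seq low-input kit and read as paired ends on a shared lane, per the series' design text, after PicoPure isolation and MicroPlex library preparation, per the labels' protocols. The authors deposited expected counts, estimates of reads for each gene that carry no scaling for library depth; RSEM and mm10 are named in the submitters' processing notes. The sources used here give no RSEM version, annotation, strand setting or filter. Amplified reads without molecular identifiers are not independent molecules.

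Expected counts were rounded, filtered with filterByExpr and scaled with TMM. edgeR 4.0.16 in R 4.3.3 fitted all 14451 genes left, with group as the single term, and its robust quasi-likelihood test (two-sided) was adjusted after Benjamini and Hochberg and read at 0.05. The steps were also run on simulated data, whose outcome is not reported here and on which no statement above rests. The p-values and SDs cover the spread between libraries, which may be technical, since nothing says that they came from separate animals. Log2 CPM used a prior count of 2. The 9 genes and the 13 further lists (152 of 153 entries found) were chosen with earlier results of these data known. The other genes that could be named were, per list, the 3 of highest mean CPM and the 2 of smallest unadjusted p (for cells outside the neural lineage the 2 of highest mean CPM), Prpf6, and the 5 nearest in profile. Nkx2-1, Eomes, Pax6, Dlx6, Dlx6os1, Otx2, Dlx1as, Vip, Pvalb, Tcf7l2 and Lhx9 were named after their values were seen. The same holds for Lhx8, Maf, Sox6, Satb1, Calb2, Hbb-b2 and Hbb-bt. Some genes that this rule names are not reported here. Coordinates and transcript lengths came from GENCODE M21 (GRCm38) by gene symbol. Alternatives were other scalings and filters, DESeq2 1.42.0, limma-voom 3.58.1, no robust estimation, an adjusted p of 0.1, a replicate block, and fits without each library in turn.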

Additional observations from a re-analysis of the deposited data

How the results depend on the processing

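No alternative brought any of the 9 genes past the adjusted threshold of 0.05, and the count of all genes past it stayed at 0 except with DESeq2, which called 12 genes, 9 higher and 3 lower, none of them among the 9. At an unadjusted p under 0.05 stood 489 genes with edgeR, 815 with DESeq2, 551 with limma-voom and 307 with the replicate block. Directions were not stable. With upper-quartile factors the log2 difference was −0.022 for Dlx2 and −0.018 for Gad2, with limma-voom it was 0.14 for Dlx1, and with the replicate block 0.15 for Dlx1, each of the opposite sign; the cause was not tested. Leaving out each library in turn gave −0.60 to 0.72 for Dlx1, −0.36 to 0.78 for Dlx2, −0.73 to 0.97 for Dlx5, −0.14 to 1.50 for Gsx2, −0.28 to 0.17 for Sp8, −0.30 to 1.42 for Sp9, −0.76 to 0.55 for Lhx6, −0.36 to 1.11 for Gad1 and −0.49 to 0.84 for Gad2. The replicate numbers were not taken as pairs in the main fit. The authors' own library names carry the same numbers in both groups, and what they mark is not given. Deviations of same-numbered libraries correlated at 0.054, 0.061 and −0.26 across genes for replicates 1, 2 and 3, and the libraries did not all correlate best with their own number. With so few libraries a group, these correlations cannot settle whether libraries were paired. No member of the 13 further lists passed with the block or with any library left out. Over all tested genes the median SE of a log2 difference was 0.34 and the common coefficient of variation 0.66, and the SEs of the 9 genes, 0.49 to 1.02, exceeded that median.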

Other observations

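Genes that mark finished interneuron types ranged widely in level. Of 14 subtype markers 11 were tested, and 3 had higher and 8 lower fitted levels with mutant PRPF6 (median log2 difference −0.76, with 0 past the edgeR test), and the median came to −0.11 without wild-type replicate 3 and to −0.31 when mutant replicate 3 was left out. Calb1, a calcium-binding protein gene, was at 75.8, 15.8 and 25.5 CPM in the mutant libraries and 39.1, 11.8 and 39.7 CPM in the wild-type libraries. Vip, a peptide of one interneuron class, had 0 counts in all 6 libraries, which allows up to 0.0684 CPM in a library (3 counts, counting error only), and Pvalb, a calcium-binding protein gene of another, had 1 count in wild-type replicate 1 alone. Reln, made by Cajal-Retzius cells and some interneurons, was at 23.7, 42.6 and 19.2 CPM in the mutant libraries and 48.0, 59.7 and 45.3 CPM in the wild-type libraries, with all mutant libraries below all wild-type libraries, as in 4.54% of all tested genes (log2 difference −0.84 ± 0.32, SE; edgeR adjusted p = 1.00).

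Receptor subunits and anchors of GABA-A signalling, 12 genes, had 3 higher and 9 lower, with a median of −0.35 and 0 past the edgeR test, and the median was −0.14 without mutant replicate 3 and −0.76 without mutant replicate 1. Of 10 tested genes of striatal projection neurons 3 were higher and 7 lower (median −0.90, 0 past the test), and the median was −0.44 without wild-type replicate 3. Bcl11b, which deep-layer cortical neurons also express, was at 234 ± 157 CPM with mutant and 526 ± 200 CPM with wild-type PRPF6 (SD, n = 3 each). Of 4 tested oligodendrocyte precursor genes 3 were higher and 1 lower (median 0.84), but 1 higher and 3 lower without mutant replicate 1 (−0.53). Olig2, also a factor of ventral progenitors, was at 97.3 CPM in mutant replicate 1 and at 6.79 to 40.0 CPM in the other libraries. The 6 Cajal-Retzius genes were split, 3 higher and 3 lower, with a median of −0.074, which was −0.47 without mutant replicate 1 and 0.40 when wild-type replicate 3 was left out. Their median centred log2 CPM was 1.20, 0.068 and 0.12 in the mutant libraries and −0.89, 0.38 and 0.78 in the wild-type libraries. This median was high and low in the same libraries as the ventral median, but not every gene was. Mutant replicate 1 was the highest library for 3 of the 6 genes, and wild-type replicate 1 the lowest for 2. Reln was at 23.7 CPM in mutant replicate 1 and at 48.0 CPM in wild-type replicate 1. Of these precursor and Cajal-Retzius genes 0 passed the edgeR test. Both lists share genes with other lists and are not independent of them. Olig1 and Olig2 are also listed with the ventral factors. Reln, Calb2 and Ndnf are also listed as subtype markers, and Lhx5 with interneuron migration and maturation.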
